A study of Homo sapiens with 4 samples.

Results

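Peak summits of GapR-GFP inside 10 protein-coding genes are described here: SMURF2, EZR, CLTC, RAD23B, TSC22D2, AZIN1, VAPA, MSL2, AHR and TES. The genes were chosen from the same data, for many summits per length deep in the gene in both deposited peak lists, so the densities below describe the choice and carry no test. They are 10 of the 11014 RefSeq protein-coding genes that span 20 kb or more. A summit is the base of highest signal within a peak. Of the peaks called for WT replicate 1, written WT1 from here, 290 of 81411 had their summit in these genes, and 131 of 42656 of those called for WT replicate 2, written WT2.

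The libraries came from HCT116, a human colorectal carcinoma line, by CUT&RUN against GFP, which releases DNA beside the antibody-bound protein for sequencing. All cells expressed GapR. There were 2 WT libraries, labelled wildtype, and 2 MT libraries, whose labelled genotype is a double knockout of TOP2A and TOP2B, while the series design describes a GFP fusion of mutant GapR in their place. The labels give 2 µM palbociclib for 28 h, an arrest in G1, for WT and MT alike, and the design calls the cells asynchronous. The files did not settle either conflict. Each peak list set 1 WT library (21774260 fragments after filtering in WT1, 27443146 in WT2) against the same MT replicate 1 (23356540 fragments), so the lists share a control and are not independent. Nothing says that the replicates came from separate cultures, so the spread between them may be technical. MT replicate 2 was not analysed here.

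GapR is a bacterial protein with a preference for overtwisted DNA, the form with positive supercoils. RNA polymerase overtwists the DNA ahead of it and undertwists the DNA behind it, and topoisomerases of type I and type II relax both. Long transcribed gene bodies are therefore places where such a probe can be looked for away from promoters.

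The genes have unrelated products. EZR (ezrin, which ties actin to the plasma membrane) and TES (testin, a LIM domain protein of focal adhesions) belong to the cell cortex. SMURF2 is a HECT ubiquitin ligase of TGF-beta signalling, MSL2 a RING ubiquitin ligase of the histone acetylating MSL complex, and RAD23B a ubiquitin receptor that also stabilises the damage sensor XPC. CLTC encodes the clathrin heavy chain, and VAPA an anchor protein of the endoplasmic reticulum at membrane contacts. AHR is the ligand-activated aryl hydrocarbon receptor, TSC22D2 a member of the TSC22 domain family, and AZIN1 an inhibitor of antizyme that protects ornithine decarboxylase from degradation.

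RefSeq lists promoter windows for 8 of the genes. The 250 bases before the annotated start are shown for MSL2, SMURF2, EZR and TES, a selection made after the values were seen. MSL2 had the strongest start peak, and SMURF2 a start peak that ran far into the gene. EZR had a listed start window beside, and not under, a peak of WT2. TES had a first start window under a peak and an inner start window under none. Windows are from GRCh38.p14, written 5′ to 3′ on the gene's strand, and capitals mark the GC box GGGCGG or its reverse complement, with overlapping matches merged.
MSL2, chr3:136196336-136196585, minus strand: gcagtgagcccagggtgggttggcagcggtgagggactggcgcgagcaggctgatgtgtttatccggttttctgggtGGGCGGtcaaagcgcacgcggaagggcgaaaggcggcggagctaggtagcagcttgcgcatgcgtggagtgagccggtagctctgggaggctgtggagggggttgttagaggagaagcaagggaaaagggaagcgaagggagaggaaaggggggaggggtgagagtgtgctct
SMURF2, chr17:64662308-64662557, minus strand: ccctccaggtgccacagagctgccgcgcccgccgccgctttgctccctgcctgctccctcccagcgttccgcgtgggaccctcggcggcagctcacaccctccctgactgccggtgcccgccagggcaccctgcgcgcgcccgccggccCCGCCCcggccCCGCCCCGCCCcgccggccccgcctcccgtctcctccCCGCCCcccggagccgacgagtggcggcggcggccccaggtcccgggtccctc
EZR, chr6:158818236-158818485, minus strand: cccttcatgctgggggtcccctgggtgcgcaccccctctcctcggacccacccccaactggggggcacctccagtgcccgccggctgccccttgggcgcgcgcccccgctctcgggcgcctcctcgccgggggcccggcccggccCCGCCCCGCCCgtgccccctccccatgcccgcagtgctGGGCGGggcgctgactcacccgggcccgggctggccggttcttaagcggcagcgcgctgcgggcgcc
TES, first start, chr7:116210289-116210538, plus strand: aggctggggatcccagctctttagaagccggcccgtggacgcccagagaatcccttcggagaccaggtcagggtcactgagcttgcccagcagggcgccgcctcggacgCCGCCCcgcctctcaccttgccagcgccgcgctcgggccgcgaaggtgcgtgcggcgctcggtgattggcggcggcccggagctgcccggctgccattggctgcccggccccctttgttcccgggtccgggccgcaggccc
TES, inner start, chr7:116222703-116222952, plus strand: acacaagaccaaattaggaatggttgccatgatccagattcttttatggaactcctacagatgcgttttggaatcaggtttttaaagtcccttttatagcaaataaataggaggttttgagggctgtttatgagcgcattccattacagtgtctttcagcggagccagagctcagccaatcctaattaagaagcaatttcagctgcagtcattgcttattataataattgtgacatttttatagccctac

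The starts carried peaks of their own. The first listed window lay under a peak in 8 of 8 genes in WT1 and in 6 of 8 in WT2, where 61.2% and 47.1% of the 8941 genes of at least 20 kb with a window did. Fold enrichment, the authors' value for each peak over the local MT level, was 10.3 in WT1 and 11.2 in WT2 at the MSL2 start, the highest of the 8 genes in both lists. The MSL2 summits lay 455 bp and 388 bp before the start, outside the gene, and its interior peaks reached 5.92 and 4.38. MSL2 thus had its highest enrichment at the start in both libraries.

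At SMURF2 the start peak of WT1 was 10766 bp long with a fold enrichment of 8.68, and that of WT2 was 1004 bp long with 7.04. The longer peak reached 64654674, over 7 kb into the gene, so the first summit inside SMURF2 in that list stood 8.42 kb from the start. At EZR the listed window, which lies inside the RefSeq gene span, was under a peak of 5.92 in WT1, and the nearest summit of WT2 was 964 bp from that start. WT2 had a peak of 3.31 across the outer boundary of EZR (158818765 to 158819934), which overlapped the WT1 peak and missed the window. The first TES window had 6.35 and 5.69. No peak of either list touched the window of the inner TES start, and the nearest summits were 982 bp and 860 bp from that start. Those summits belong to overlapping peaks just past that start, at 116223107 to 116225635 in WT1 and 116223552 to 116223825 in WT2. The windows of TES differ in composition, with 73.6% G or C and 28 CpG dinucleotides at the first start, and 38.4% and 3 at the inner start.

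Of the 12 windows listed for the 8 genes, 8 held a GC box on either strand, against 42.6% of all 35116 RefSeq windows. The E box CACGTG was found in 2 windows (AHR and VAPA), against 6.34% of all, and the AP-1 motif TGANTCA in 1 (EZR), against 6.57%. The motifs were searched on both strands, and matches of different motifs did not overlap in these windows. Median content of G and C was 67.4% in the 12 windows and 58% in all windows. These matches are descriptions of letters in the windows, not of bound factors.

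Summits ran through the interiors of the genes, defined as positions over 5 kb from both boundaries. Interior summits numbered 251 in WT1 and 110 in WT2, which is 5.18 and 2.27 per 10 kb over the 10 genes together (3.72 ± 2.06, SD, n = 2 lists). The median gene of at least 20 kb had 0.190 and 0 per 10 kb, and all such genes together had 0.357 and 0.136. All 10 genes had interior summits in both lists, where 63.7% and 44.1% of genes of at least 20 kb had at least 1. All 10 also had an interior peak of WT1 that overlapped a peak of WT2, which 39.3% of those genes had. The choice of the genes used both. Edges, up to 5 kb from a boundary, held the other 39 summits of WT1 and 21 of WT2.

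**Figure D1:**
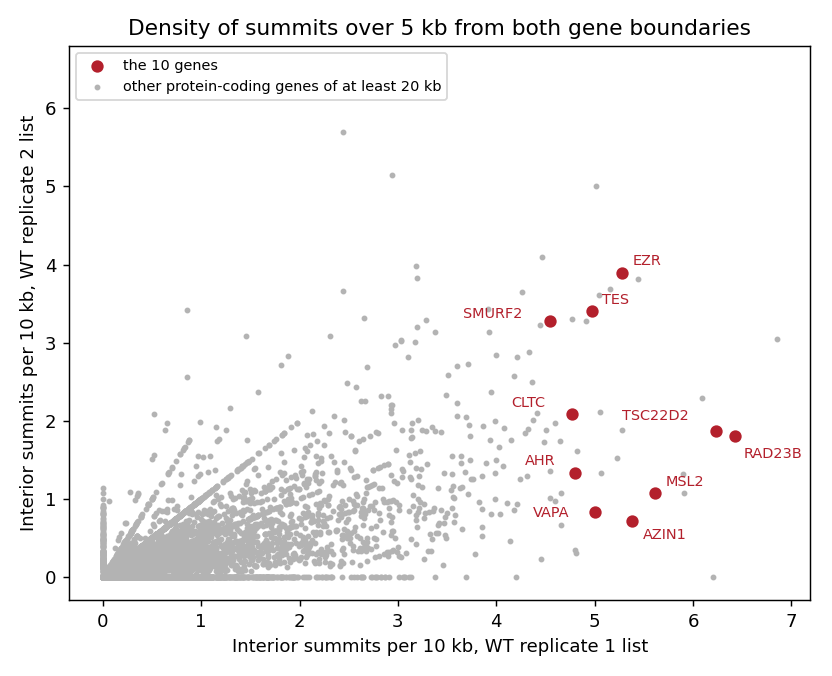
Interior summits per 10 kb in the list of WT1 (x axis) and of WT2 (y axis). Red points are the 10 genes and grey points the other protein-coding genes of at least 20 kb; the 10 genes lie between 4.54 and 6.42 on the x axis and spread from 0.717 to 3.90 on the y axis.

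The description "dense in both lists" held unevenly. In WT1 all 10 genes were among the densest 36 of 11014, from RAD23B at rank 2 to SMURF2 at rank 36. The densest 1% (110 genes, 0.999% of those counted) included all 10 in WT1 and 5 of the 10 in WT2. Of the 10, only EZR (rank 6), TES (15) and SMURF2 (20) were among the 36 densest genes of WT2, and VAPA (603) and AZIN1 (783) stood far lower. Interior density reached the lowest value among the 10 genes in 0.327% of genes in WT1 (4.54 per 10 kb, SMURF2), in 7.11% in WT2 (0.717, AZIN1), and in 0.291% in both. The last share is 32 genes, so 22 genes that are not described here were as dense by this measure, CDC42EP4 (5.44 and 3.81 per 10 kb) and PTP4A2 (5.01 and 5.01) among them.

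Ordered by the worse of the ranks in both lists, EZR was second, TES sixth and SMURF2 eleventh of all genes, and AZIN1 was last of the 10 at place 419. Just before AZIN1 came FAAP20, with 1.64 and 1.10 summits per 10 kb in WT1 and WT2, ENTPD7 (1.68 and 0.719) and SLC25A37 (1.64 and 0.822). Just after it came EPAS1 (1.64 and 0.757), IQGAP1 (1.63 and 1.15) and PTPA (1.79 and 0.714). AZIN1 itself had 5.38 and 0.717, so its WT1 density was above that of all 6, and its WT2 density was above that of PTPA only.

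EZR (chromosome 6, 158765748 to 158819368 in hg38, 53.6 kb) had 23 interior summits in WT1 and 17 in WT2, or 5.27 and 3.90 per 10 kb. Peaks covered 65.3% and 22.4% of the gene, the largest shares of the 10 genes in both lists. Summits reached from 0.482 to 50.1 kb behind the gene boundary in WT1 and up to 50.7 kb in WT2, with no interior gap over 4.02 and 6.15 kb. All 19 peaks of WT2 overlapped a peak of WT1, and 19 of 30 the other way. Summits thus stood along nearly the whole of EZR in both libraries. Fold enrichment was moderate, with a median of 4.35 and 3.55 and a highest value of 5.96 and 5.52. Among its shared peaks, those that overlap between the lists, the best ranked in both lists had its summit 26.0 kb from the boundary, with 5.77 in WT1 and 4.55 in WT2 and summits 88 bp apart. The antisense RNA gene EZR-AS1 overlaps the first part of EZR and held 1 and 0 of these summits.

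TES (chromosome 7, 116210539 to 116258783, 48.2 kb) had 19 and 13 interior summits, or 4.97 and 3.40 per 10 kb. Peaks covered 57.9% and 19.9% of it. Its best ranked shared peak had a fold enrichment of 8.30 in WT1, 26.7 kb from the start, and 5.97 in WT2, where the paired summit lay 1148 bp away. These were the highest values inside TES in both lists. Within TES lies the lncRNA gene LOC124901730 (116235868 to 116257304), whose span held 11 of 21 summits in WT1 and 7 of 16 in WT2. Peaks at those positions cannot be assigned to either transcript.

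SMURF2 (chromosome 17, 64542282 to 64662307, 120 kb) is the longest of the genes and had 50 and 36 interior summits, or 4.54 and 3.27 per 10 kb. Peaks covered 41.3% of it in WT1 and 19.1% in WT2. Along its length WT2 placed nearly all summits in the first 80 kb, and WT1 did not. In steps of 20 kb from the start there were 7, 13, 13, 8, 9 and 2 in WT1 and 9, 11, 13, 4, 0 and 1 in WT2. Between 71.6 and 111 kb no summit stood in WT2, a gap of 39.6 kb, while 9 stood between 80 and 100 kb in WT1. The last 20 kb were sparse in both lists. The best ranked shared peak, 59.9 kb from the start, had a fold enrichment of 8.29 (pileup 27) in WT1 and 4.73 (pileup 17) in WT2, with summits 24 bp apart.

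**Figure D2:**
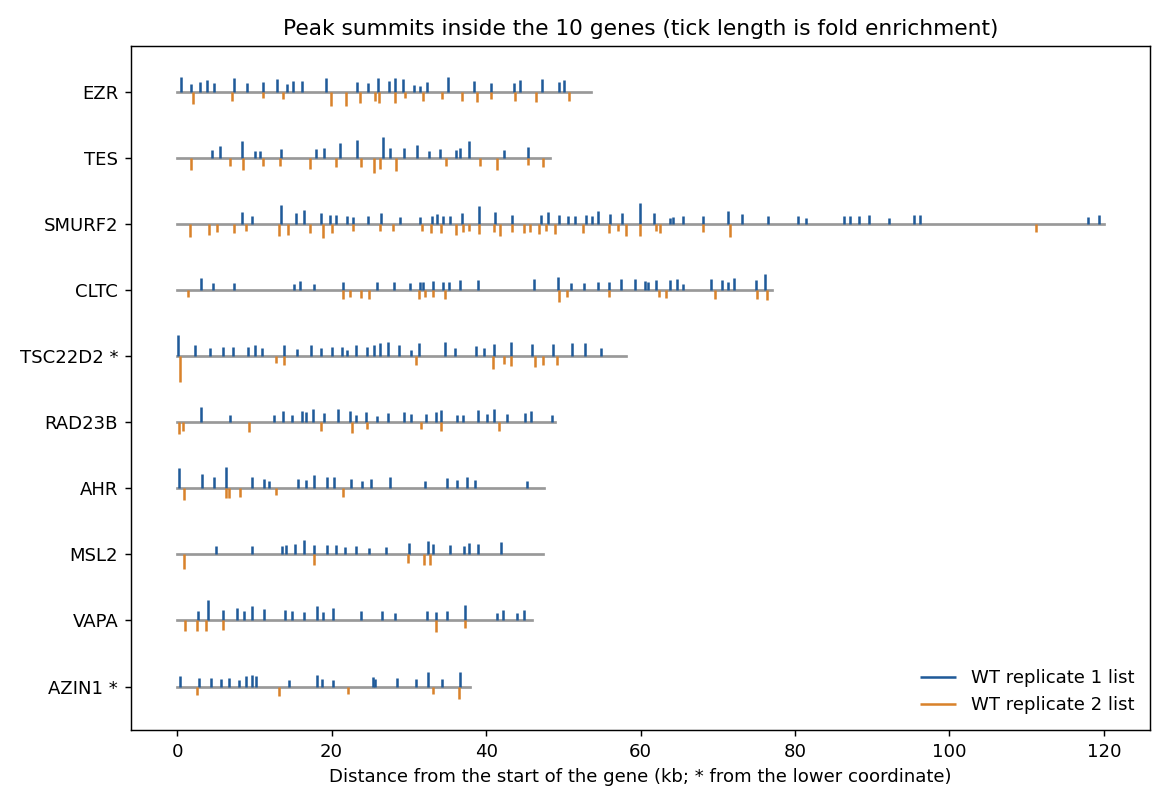
Summits in each gene against distance from its start in kb, with WT1 above each line and WT2 below it. Tick length is proportional to fold enrichment, the longest tick being 10.4 at TSC22D2; genes are ordered by the worse of their ranks, and asterisks mark genes drawn from their lower coordinate because no strand was listed.

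CLTC (chromosome 17, 59619895 to 59696956, 77.1 kb) had 32 and 14 interior summits, or 4.77 and 2.09 per 10 kb. Its peaks were the weakest of the set, with a median fold enrichment of 3.42 in WT1 and 3.09 in WT2. The strongest peak inside it in WT1 (6.58) had its summit 76.1 kb from the start, near the end of the gene, and the overlapping peak of WT2 had 3.98. PTRH2, which encodes a peptidyl-tRNA hydrolase, lies 352 bp beyond that boundary. In WT2 the strongest peak inside CLTC (4.55) was 49.5 kb from the start, where WT1 had 5.16. At its start, by comparison, CLTC had 8.91 and 6.85.

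RAD23B (chromosome 9, 107283279 to 107332194, 48.9 kb) had 25 and 7 interior summits, or 6.42 and 1.80 per 10 kb. Its density in WT1 was the highest of the 10 genes, and 3 of its 29 peaks there overlapped a peak of WT2. Those 3 stood 22.4, 24.5 and 34.1 kb from the start, with fold enrichments of 4.53, 4.20 and 4.88 in WT1 and 4.07, 2.79 and 3.30 in WT2. TSC22D2 (chromosome 3, 150408298 to 150466422, 58.1 kb) was the nearest to RAD23B in both lists, with 30 and 9 interior summits, or 6.23 and 1.87 per 10 kb. Peaks covered 53.5% of TSC22D2 in WT1 and 10.1% in WT2. Its strongest peak, 0.156 kb inside the lower boundary, had a fold enrichment of 8.54 in WT1 and 10.4 in WT2. No strand was listed for TSC22D2, so positions in it run from the lower coordinate.

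AHR (chromosome 7, 17298652 to 17346147, 47.5 kb) had 18 and 5 interior summits, or 4.80 and 1.33 per 10 kb. The last summit of WT2 stood 21.5 kb from the start and that of WT1 at 45.3 kb, so beyond the middle of AHR only the list of WT1 held peaks. AHR had 2 peaks of WT1 that overlapped one of WT2. The first was at the start, with 8.14 in WT1 and 6.54 in WT2, and the other 6.37 kb inside, with 8.70 and 3.88 and summits 17 bp apart. The peak 6.37 kb inside was the strongest interior peak of all 10 genes in WT1.

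MSL2 (chromosome 3, 136148917 to 136196335, 47.4 kb) had 21 and 4 interior summits, or 5.61 and 1.07 per 10 kb. All 21 summits of WT1 lay in the interior, and 3 of its peaks overlapped WT2, between 17.8 and 32.5 kb from the start. VAPA (chromosome 18, 9914016 to 9960021, 46.0 kb) had 18 and 3, or 5.00 and 0.833 per 10 kb. In VAPA 4 of the 6 summits of WT2 stood in the first 20% of the gene, whereas those of WT1 numbered 5, 6, 4, 4 and 5 in steps of 20%. AZIN1 (chromosome 8, 102826302 to 102864200, 37.9 kb) had 15 and 2, or 5.38 and 0.717 per 10 kb. Of the shared peaks in AZIN1, 1 of 3 had an interior summit in WT1 (fold enrichment 5.94), and its partner in WT2 (2.89) had its summit up to 5 kb from the boundary. In MSL2, VAPA and AZIN1 the interior density thus rested mainly on WT1.

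Across the genes the ratio of interior density in WT1 to that in WT2 ran from 1.35 in EZR, 1.39 in SMURF2 and 1.46 in TES through 2.29 in CLTC to 5.25 in MSL2 and 7.50 in AZIN1. All 10 genes were denser in WT1, as were 51.8% of genes of at least 20 kb (5700 of 11014). Only 7013 of those genes had an interior summit in WT1, and the rest could not be denser there. Mean densities over both lists lay between 2.92 ± 2.95 per 10 kb in VAPA and 4.58 ± 0.973 in EZR (SD, n = 2). No gene was separated from its neighbours in this order by more than the spread between lists.

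The lists differ in length, and lists cut to the 40000 peaks of highest fold enrichment gave another picture. The peaks kept had a fold enrichment of at least 4.18 in WT1 and 2.87 in WT2. Interior density over the 10 genes was then 1.90 per 10 kb in WT1 and 1.88 in WT2, from 92 and 91 summits. Of the 10 genes, 6 remained denser in WT1 by this count, EZR was equal with 13 in both, and SMURF2, TES and CLTC were denser in WT2. Among all genes of at least 20 kb, 21.1% were denser in WT1 and 15.2% in WT2 by the same count. TES had 7 interior summits in WT1 and 13 in WT2 in the shortened lists, and TSC22D2 had 17 and 8. In WT1, 3316 peaks tied at the lowest fold kept, 9 of them in these genes, and ties were cut by position.

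**Figure D3:**
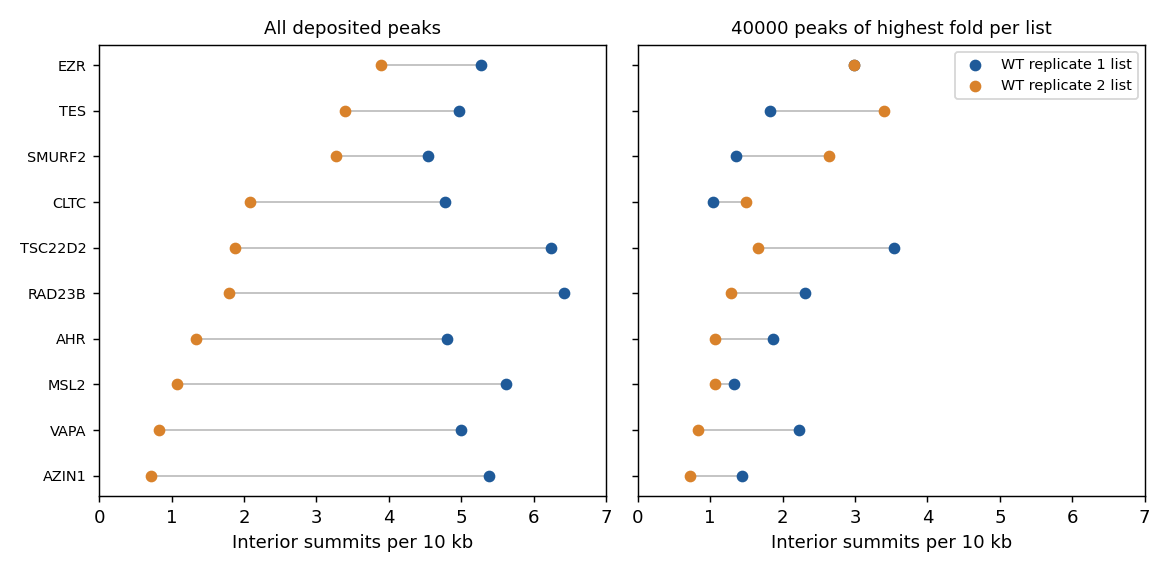
Interior summits per 10 kb in each gene, for all deposited peaks (left) and for the 40000 peaks of highest fold enrichment in each list (right). Lines join WT1 and WT2 of a gene; with lists of one length EZR coincides at 2.98, and TES, SMURF2 and CLTC change order.

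Interior peaks of these genes were not strong. Their median fold enrichment was 3.82 in WT1 (quartiles 3.22 and 4.53) and 3.52 in WT2 (3.08 and 4.06). Interior peaks of the other genes of at least 20 kb had 3.83 and 4.07, and all peaks 4.18 and 4.38. The WT pileup at interior summits had a median of 13 fragments in WT1 (8 to 49) and 13.5 in WT2 (9 to 29). Each such peak therefore rests on few fragments. Median length was 538 bp and 368.5 bp, against 456 bp and 437.5 bp for interior peaks of the other genes.

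**Figure D4:**
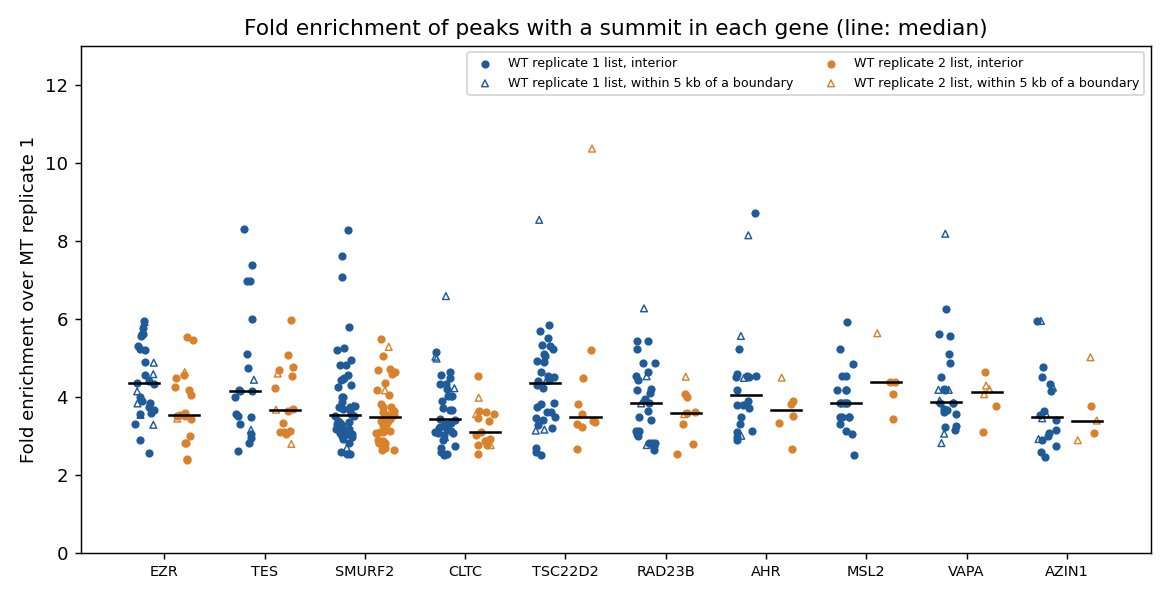
Fold enrichment over MT replicate 1 (y axis) of every peak with a summit in each gene, in WT1 (blue) and WT2 (orange). Filled circles are interior peaks, open triangles peaks up to 5 kb from a boundary, and lines medians, which lie between 3.09 and 4.38.

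The local MT level behind the folds, computed back from fold and pileup, was higher at most of these genes, and not at all. Its median at interior peaks was 2.56 fragments in WT1 and 3.13 in WT2, against 2.05 and 2.54 at interior peaks of the other genes. Only 48 of 251 interior peaks (19.1%) of WT1 and 8 of 110 (7.27%) of WT2 stood at the lowest MT level of their list, against 41.2% and 29.6% for the other genes. That level, 1.87 in WT1 and 2.20 in WT2, was common to 41.9% and 32.5% of all peaks. A value repeated so often acts as a floor and need not be a local reading of the MT library. Levels below it cannot be seen, which also bounds the medians. Both lists used MT replicate 1, yet their lowest levels differ, so MT levels are compared only within a list. At SMURF2 the median MT level at peaks was 3.26 and 3.52, at CLTC 2.80 and 3.52 and at AZIN1 2.74 and 3.13, and none of their peaks stood at the lowest level. All peaks of chromosome 17 had median MT levels of 2.33 and 2.92, and all peaks of chromosome 8 had 2.80 and 3.18. In each list 7 of 10 genes had a median above that of all peaks (2.05 in WT1, 2.50 in WT2). RAD23B was below it in WT1 (1.95, with 41.4% of its peaks at the lowest level), and VAPA had 2.05 and 2.24, with 37.5% and 33.3% at the lowest level. MSL2 had 17 of 21 peaks and 5 of 5 at the lowest level. The pooled medians count each peak once, so SMURF2, with most interior peaks in both lists (50 and 36), weighs most in them. Pooled medians of the MT level without SMURF2 were not computed. Copy number was not measured here, and the part of the MT level in these densities was not tested.

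Overlap between the lists, which the choice of genes also used, was as uneven as density. Of the peaks of WT1 in the 10 genes, 89 of 290 (30.7%, 95% exact binomial interval 25.4 to 36.3%, for counting error only) overlapped a peak of WT2, and of those of WT2, 110 of 131 (84.0%, 76.5 to 89.8%) overlapped one of WT1. Over all deposited peaks the share was 39.1% in WT1 and 84.5% in WT2. The intervals treat peaks as independent and do not cover the spread between genes, so no test is drawn from them. Among interior peaks alone, 77 of 251 (30.7%) and 90 of 110 (81.8%) overlapped, against 26.7% and 80.3% for interior peaks of the other genes. By gene the share in WT1 was highest in EZR (63.3%), TES (52.4%) and SMURF2 (46.2%) and lowest in AHR (9.09%) and RAD23B (10.3%). Shared interior peaks of WT1 were longer, at a median of 1085 bp against 448.5 bp for the rest, and had a median fold enrichment of 4.26 against 3.61. Paired summits were a median of 267 bp apart, and 34 of 89 lay at most 200 bp apart.

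In the 8 genes with a listed strand, steps of 20% from start to end held 36, 55, 58, 52 and 35 summits in WT1 and 29, 29, 29, 14 and 15 in WT2. The first 3 steps thus held equal numbers in WT2 and the last 2 fewer, and SMURF2 gave 11, 16 and 10 of the summits in those first 3. The median position was 47.5% of the length in WT1 and 40.2% in WT2. The first 2 kb of the 8 genes held 3 summits in WT1 and 8 in WT2, or 1.88 and 5 per 10 kb, so in WT2 the starts were denser than the interiors. Such a summit was present in 2 of 8 genes in WT1 (EZR and AHR) and in 7 of 8 in WT2 (not EZR). Among the 8941 genes the shares were 42.9% and 39.5%. The 2 kb were counted from the gene boundary, which at EZR lies outside the listed start. From that listed start, the nearest WT2 summit stood 964 bp inside EZR, so the absence of EZR depends on the boundary used. Summits lying just before a start, as at MSL2 and SMURF2 in both lists, are not in these counts. Neighbouring interior summits were a median of 1.46 kb apart in WT1 and 2.01 kb in WT2.

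Summits thinned outside the genes. From 5 to 50 kb beyond both boundaries the 10 genes had 0.744 summits per 10 kb in WT1 and 0.556 in WT2, against 5.18 and 2.27 in their interiors. The interior was denser than the flanks in 10 of 10 genes in WT1 and in 9 of 10 in WT2, where 38.9% and 27.8% of genes of at least 20 kb had denser interiors than flanks. The 10 genes were chosen for dense interiors, so this comparison describes the choice. The exception was AZIN1 in WT2, with 0.717 inside and 0.889 outside. AHR and MSL2 stood most alone, with 0.111 per 10 kb in the flanks in both lists. EZR (1.44 and 1.22) and SMURF2 (1.44 and 1.44) had the densest flanks.

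Relatives and partners of the genes were sparser. Of 32 such genes, named by textbook knowledge, 19 are at least 20 kb long, and 15 of these had an interior summit in WT1 and 12 in WT2. Their median interior density was 0.638 and 0.148 per 10 kb, and none was denser than its own relative among the 10 genes. Because the 10 genes were chosen for density, this difference describes the choice. The median gene of at least 20 kb had 0.190 and 0 per 10 kb. The densest was TIPARP, an AHR target that encodes a mono-ADP-ribosyltransferase and inhibits AHR, with 3.16 and 0.902 per 10 kb. SMURF1, the closest relative of SMURF2, had 2.34 and 0.844. The EZR relatives RDX and MSN had 1.16 and 0.279 in WT1, and 0.537 and 0.0697 in WT2. VAPB had 1.16 and 0 against 5.00 and 0.833 in VAPA. Of the clathrin genes other than CLTC, CLTCL1 and CLTA had no interior summit in either list, and neither did XPC, the partner of RAD23B.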

How the data were processed

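CUT&RUN libraries were read as 75 bp pairs, per the labels' protocols. Bowtie2 2.3.4, ChIPseeker 1.28.3, MACS2 2.1.2 and the build hg38 appear in the submitters' processing notes. Per the file headers, the authors ran MACS2 on each WT library against MT replicate 1, at a q-value cutoff of 0.05, a smallest length of 200 bp and at most 2 fragments of the same position. The deposited pileup is a signal, the number of WT fragments over a summit. Fold enrichment, as deposited by the authors, is pileup over local MT level as a ratio, with 1 added to both. The −log10 q-value and p-value are deposited by MACS2 and the q-value served as a filter only.

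The MT level was computed back from pileup and fold, taking the whole-number pileups as unscaled. Gene spans and strands came from RefSeq tables for GRCh38.p14. Exons, introns and interior sequence were not analysed here. Interior means over 5 kb from both boundaries, and overlap means at least 1 bp. The members and lists were chosen with earlier results of these data known, so nothing was tested. All 10 genes, the best shared peaks of each gene and listed relatives are named. So are the 3 genes on either side of the last of the 10 by rank. CDC42EP4, PTP4A2, PTRH2 and the promoter windows shown were chosen after their values were seen. Python 3.11.15, pandas 2.3.3, NumPy 2.4.6 and SciPy 1.17.1 were used, and the counting steps were checked on planted summits. Alternatives were a stricter q-value, lists of equal length, the lowest MT level, other interior and overlap definitions, and leaving out a list or SMURF2.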

Additional observations from a re-analysis of the deposited data

How the results depend on the processing

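Of 45 alternative values, 28 moved by less than the spread between lists or the counting interval. For leaving out a list this was fixed in advance, because with 2 lists the mean then moves by less than their SD. The spread was also wide. Density of 1.89 per 10 kb in lists of 40000 peaks counted as within it, against 3.72 (SD 2.06). So did covered length of 14.2% with the stricter q-value, against 27.0% (SD 21.0). The direction of some other moves was fixed too. Keeping fewer peaks can only lower density and covered length, and a stricter overlap can only lower the share. Keeping the peaks of highest fold can only raise the median fold. The values beyond the spread or interval moved as follows, and the cause was not tested. Interior density was 1.04 per 10 kb with a −log10 q-value of at least 5 and 0.578 at the lowest MT level, against 3.72. The share of WT replicate 2 peaks overlapped by WT replicate 1 was 84.0%, and 58.2% in lists of 40000 peaks. At the lowest MT level it was 72.7%, from only 11 peaks. With 50% overlap of both peaks it was 17.6%, and with summits at most 200 bp apart 27.5%. The reverse share was 21.5% with the stricter q-value, 42.0% in lists of 40000 peaks, 12.3% at the lowest MT level, 8.28% with 50% overlap and 12.4% with summits at most 200 bp apart, against 30.7%. Median position over all 10 genes was 43.8% of the gene length, and 48.4% without SMURF2, a choice made after seeing the data. At the lowest MT level it was 65.8%. That level held 57 peaks of WT replicate 1 and 11 of WT replicate 2, with 17 and 5 of them in MSL2. Median interior fold enrichment was 4.88 with the stricter q-value, 4.24 in lists of 40000 peaks and 4.12 at the lowest MT level, against 3.67. Covered length was 4.19% at the lowest MT level, against 27.0%. Leaving out either WT list gave 2.27 to 5.18 per 10 kb, positions of 40.8 to 46.9%, folds of 3.52 to 3.82 and covered lengths of 12.2 to 41.9%, and overlap then has no value. No paired analysis was possible because both lists use MT replicate 1. Interior peaks rested on a median of 13 fragments in WT replicate 1 and 13.5 in WT replicate 2.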
